A study of Homo sapiens with 6 samples.

Results

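The authors' table of m7G peaks in the colorectal cancer cell line DLD1 lists 9450 peaks, 1 for each gene, and 922 of them belong to genes that are not protein coding. These 922 peaks were chosen by the biotype column of that table alone, taking every class other than protein_coding. They fall into 16 biotypes: 425 antisense RNA genes (46.1%), 225 lincRNA genes (24.4%), 145 pseudogenes of several kinds, 114 genes of other long noncoding classes and 13 small RNA genes. The 13 small RNA genes hold 11 snRNA genes, 1 rRNA gene and 1 snoRNA gene. Among the smaller biotypes are 78 transcribed unprocessed pseudogenes, 63 processed transcripts and 33 genes of the class TEC, which Ensembl keeps for transcripts still to be tested. By position, 903 of the 922 peaks (97.9%) carry the location class exon.

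N7-methylguanosine, or m7G, is a methylated guanine that forms the cap at the 5' end of RNA made by RNA polymerase II, and it also occurs inside tRNA, rRNA and some other RNAs. METTL1, with its partner WDR4, methylates guanines inside tRNA and has been reported to do so in let-7 microRNA precursors, while RNMT methylates the cap. Long noncoding RNAs are capped and often spliced like mRNA, many antisense and divergent RNAs start close to the promoter of a coding gene, and spliceosomal U1 and U2 RNAs receive a hypermethylated cap.

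The study compared DLD1 cells with METTL1 knockdown (genotype label METTL1 knockdown, construct sh2) with control cells (genotype label control, construct sh-NT), by sequencing input RNA and RNA pulled down with an m7G antibody. In a second experiment, RNA of DLD1 cells labelled WT was sequenced from co-culture with fibroblasts called S-CAFs (library S-CAFs-w13) and from a library titled DLD1-W13CM, read as the co-culture with CAFs since no other RNA-seq library is left. Each of the 6 groups is 1 library, so no value below has a replicate check, the knockdown rests on a single construct, and differences in culture cannot be told apart from the named conditions. METTL1 itself stood at 5.80 FPKM in control input and was at 3.28 FPKM in knockdown input, 1.77-fold lower (95% counting interval 1.37 to 2.29). Levels are given in FPKM, read fragments relative to the length of the gene and the size of the library. Knockdown input had 1.11 times the depth of control input, and S-CAFs-w13 0.981 times that of DLD1-W13CM, as read from the smallest steps of the FPKM values. All 9 listed colon epithelial markers were in the co-culture table, with summed levels of 2093 FPKM (DLD1-W13CM) and 3199 FPKM (S-CAFs-w13), while 3 of 10 fibroblast markers were in it, summing to 0.560 and 1.57 FPKM. In the co-culture libraries, fewer cells of a type and less RNA per cell cannot be told apart.

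One kind of sequence near these peaks is the start of snoRNA host genes, noncoding genes whose introns release small nucleolar RNAs. Their transcripts are known for a pyrimidine tract at the very 5' end, next to the cap, as in ribosomal protein mRNAs. The first 30 bases from the RefSeq start (GRCh38.p14, transcribed strand) are given for the 6 host genes whose start has a C followed by an unbroken run of C or T to at least 5 bases, with that run in capitals, and for SNHG1, SNHG8 and DANCR, which lack it.
SNHG18: CTCCTCCTCCTCCTCCTCCCCgccggggtg
SNHG4: CCCTTTCCCCTCCggcctctgccggtgctg
SNHG12: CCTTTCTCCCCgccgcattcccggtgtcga
SNHG19: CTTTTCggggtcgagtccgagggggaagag
SNHG5: CTTTTacgtcggccttcgcgagcgtctggg
ZFAS1: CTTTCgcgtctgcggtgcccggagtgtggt
SNHG1: ctcatttttctactgctcgtggtaagtggc
SNHG8: cacattcgggaagcgtcgggattaggtgaa
DANCR: gcccttgcccagagtcttcccgggattggc

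Of the 18 snoRNA host genes with a peak and a RefSeq start, 6 (33.3%) had such a run, beside 13 of the 357 other members with a start and 1429 of all 35116 RefSeq start windows (4.07%). Only the transcribed strand at the annotated start was searched, and the search was chosen after sequences were seen. The peaks of SNHG19 and SNHG5 covered the start, those of SNHG4 and SNHG12 began 1 base from it, and that of SNHG18 lay 59 bases and that of ZFAS1 255 bases away. A run in these letters is a description of the annotated start, not of the transcript's measured end.

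Another kind is the microRNAs encoded within the spans of noncoding peaks, mostly between their blocks and not in them. The span of 9 member peaks, first to last block, held 13 RefSeq microRNA hairpins, 10 of them on the strand of the peak. The mature sequences below have the seed, bases 2 to 8, in capitals (RefSeq, GRCh38.p14).
hsa-let-7a-5p: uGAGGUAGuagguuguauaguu
hsa-let-7f-5p: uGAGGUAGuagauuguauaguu
hsa-let-7d-5p: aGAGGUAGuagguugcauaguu
hsa-miR-200c-3p: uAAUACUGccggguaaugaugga
hsa-miR-141-3p: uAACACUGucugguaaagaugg
hsa-miR-196b-5p: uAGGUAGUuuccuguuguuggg
hsa-miR-4453: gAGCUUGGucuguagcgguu
hsa-miR-4449: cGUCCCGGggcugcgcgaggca

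The 3 let-7 microRNAs share 1 seed, GAGGUAG, and are known to repress growth genes. Their hairpins MIRLET7A1, MIRLET7F1 and MIRLET7D lie between the blocks of the peak of the lincRNA gene AL158152.2 (chr9:94166289-94200598, plus strand, 206 bases in 2 blocks), at least 9576 bases from the nearest block. The hairpins of miR-200c and miR-141, which target the E-cadherin repressors ZEB1 and ZEB2, lie between the 2 blocks of the MIR200CHG peak (chr12:6963246-6964302), 351 and 10 bases from a block. Their seeds differ. MIR4449 lies between blocks of the DANCR peak, 34 bases away. Of the 13 hairpins, 2 lay inside a peak block: MIR4453 in the peak of LINC02486 (chr4:152536384-152536594), with all 89 of its bases on the peak's strand, and MIR196B in that of HOXA10-AS (chr7:27169221-27171325), with 84 bases on the other strand. A hairpin within a span is a position only, and m7G of the microRNAs themselves was not measured.

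The fold enrichment is the authors' own value per peak, m7G pull-down over input. The median enrichment of the 922 noncoding peaks was 9.93 (quartiles 6.62 and 15.2, range 1.42 to 172). Peaks of protein-coding genes with the same location class, exon, had a median of 9.43 over 855 peaks (quartiles 3.77 and 17.9), and all protein-coding peaks had a median of 12.7. Median input was 1.06 FPKM for noncoding and 9.92 FPKM for these exon-class coding genes. Split by mean input, noncoding and all coding peaks had medians of 10.4 and 10.4 under 1 FPKM. Noncoding medians were lower above that: 9.43 and 12.7 (1 to 5 FPKM), 8.44 and 13.4 (5 to 20 FPKM) and 5.35 and 12.6 (20 FPKM or more). By group the median was 10.4 for antisense RNA genes, 9.43 for lincRNA genes, 9.43 for the other long noncoding classes, 9.1 for pseudogenes and 5.35 for small RNA genes. Pseudogenes differed among themselves: transcribed unprocessed pseudogenes had a median of 12.4 and processed pseudogenes, copies of spliced mRNA, one of 3.84.

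**Figure D1:**
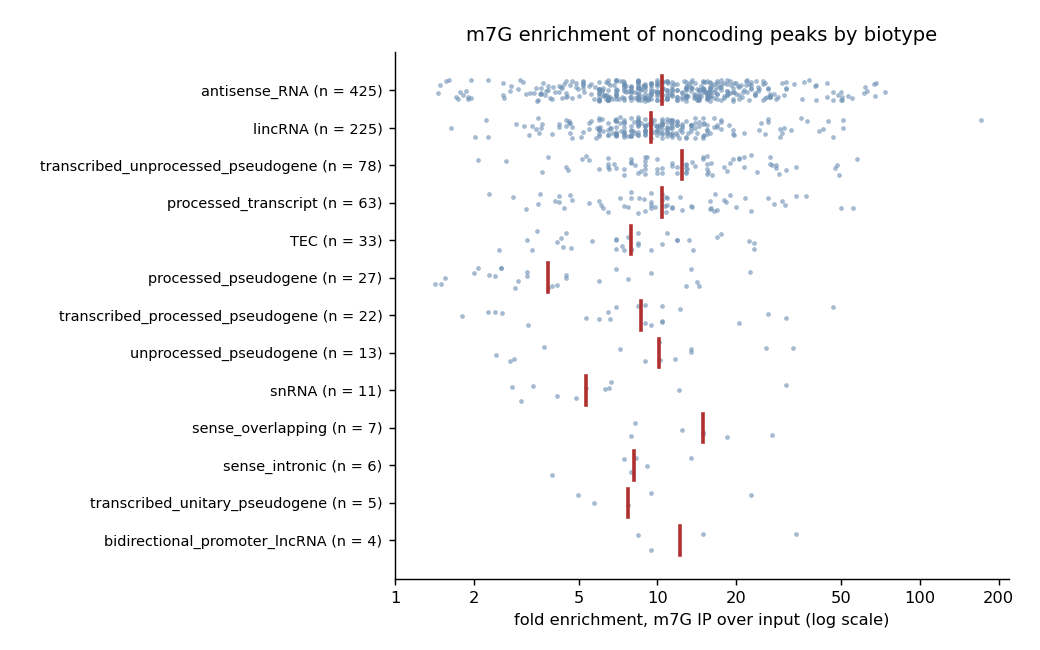
Fold enrichment of m7G pull-down over input for each noncoding peak (1 point per peak, log axis) by biotype, with the median as a red bar, for biotypes with at least 4 peaks. Processed pseudogenes (median 3.84) and snRNA genes (median 5.35) lie lowest. The lincRNA peak of MAPKAPK5-AS1 at 172, which shares bases with a coding peak, stands apart from the rest.

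The highest noncoding enrichment was 172, in MAPKAPK5-AS1 (chr12:111841772-111842843, minus strand), a peak of 1072 bases that covers the gene's own start. It shares 762 bases with the peak of MAPKAPK5, a stress kinase gene, which had an enrichment of 173. The 2 values cannot be told apart. C1orf132 and URB1-AS1 followed among lincRNA genes, each at 51.1. Among antisense RNA genes, HCG18 in the MHC region reached 73.5, SNHG7 reached 68 and AC093677.2 reached 67.5. The highest processed transcripts were BTG3-AS1 (55.6), AC079781.5 (50.1) and LINC01128 (36.7). Among pseudogenes, SEPT7P2, a septin copy, reached 57.6, HLA-V, an HLA class I copy, 49.1, and PMS2P4, PMS2P7 and PMS2P1, copies of the mismatch repair gene PMS2, 48.2, 32.8 and 26. LINC00339 (46.7), WASH5P (30.8) and MSL3P1 (26.3) led the transcribed processed pseudogenes, DND1P1 (22.6), LRRFIP1P1 (14.4) and FBXW4P1 (14.1) the processed ones, and AC009533.1 (13.4) came next among the unprocessed. The class TEC was led by AC008894.3 and AC135048.4, each at 23.3, and by HEIH at 22.3. In the smallest classes the highest were AC104971.2 (33.8, bidirectional promoter), Z95331.1 (27.3, sense overlapping), NUDT16P1 (22.8, unitary pseudogene), AC006001.2 (13.4, sense intronic) and HELLPAR (7.45, macro lncRNA). Reads of pseudogenes and their parent genes, and of PMS2 copies among themselves, can be split or lost in counting, so these values are uncertain. The peaks of BTG3-AS1, AC135048.4, AC104971.2 and Z95331.1 also share bases with a coding peak, so their enrichment may not be their own.

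Many noncoding peaks lay near a gene start, their own or that of a coding gene. Of the 375 noncoding genes whose symbol has a RefSeq start on the same strand, 118 had a peak that covered it (31.5%) and 242 one within 100 bases (64.5%). Coding peaks of the exon class covered the start in 307 of 708 genes (43.4%) and lay within 100 bases in 376 (53.1%), and those of the 5' UTR class covered it in 72.2% and lay within 100 bases in 88.9%. Over all coding genes with a start, 59.3% of peaks covered it and 74.4% lay within 100 bases, more than among noncoding genes. Of the snoRNA host genes, 15 of 18 had the peak within 100 bases of the start. The first 50 bases from the start had a median GC share of 66% over the 375 genes, 68% over the 118 whose peak covered the start and 60% over all RefSeq windows.

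Of the 894 noncoding peaks on chromosomes with RefSeq start windows, 408 (45.6%) lay within 500 bases of the start of a coding gene. That is a smaller share than the 67.5% of all peaks, 69.8% of coding peaks and 52.5% of coding exon-class peaks. For coding peaks the gene's own start counts too. Among noncoding peaks the share was 64.5% for antisense RNA genes (265 of 411), 36.7% for lincRNA genes and 10.3% for pseudogenes. Directly, 198 of the 922 peaks (21.5%) shared bases with the listed peak of a coding gene, in 200 pairs, 181 of them on opposite strands, with a median of 174 shared bases. Antisense RNA genes made up 145 of the 198 (34.1% of their class), and lincRNA genes 17 (7.56% of theirs). The sources used here do not say whether reads were assigned by strand, so in these pairs the reads of the noncoding and the coding gene cannot be told apart.

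The m7G comparison asks where m7G differs between knockdown and control cells. The table does not say which line is the numerator of the change, and it was read as knockdown over control; read the other way, every sign turns. The noncoding peaks were spread evenly about 0: the authors' deposited table had 459 lower, 427 higher and 36 at 0 (49.8% lower, beside 48.6% of all peaks), with a median log2 change of 0. By the FDR of the authors' deposited table, 15 of 922 noncoding peaks lay under 0.05 (1.63%), beside 5.25% of all 9450 peaks. Of the 15, 8 were higher and 7 lower, and over all peaks 3.07% were called higher and 2.18% lower. At an unadjusted p under 0.05 the authors' deposited table gave 49 noncoding peaks (5.32%), beside 16.1% of all peaks. The FDR comes from 1 pull-down and 1 input library of each line and does not cover variation between cultures.

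Calls varied with RNA level in both kinds of gene. In the authors' deposited table, among peaks of genes with a mean input under 1 FPKM, 8 of 437 noncoding (1.83%) and 7 of 613 coding peaks (1.14%) were called. From 1 to 5 FPKM it was 2 of 357 (0.560%) and 23 of 2365 (0.973%) in the authors' deposited table. From 5 to 20 FPKM it called 2 of 101 (1.98%) and 170 of 3666 (4.64%), and at 20 FPKM or more 3 of 27 (11.1%) and 281 of 1884 (14.9%). The median input level was 1.06 FPKM for noncoding and 7.94 FPKM for coding members of the table.

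**Figure D2:**
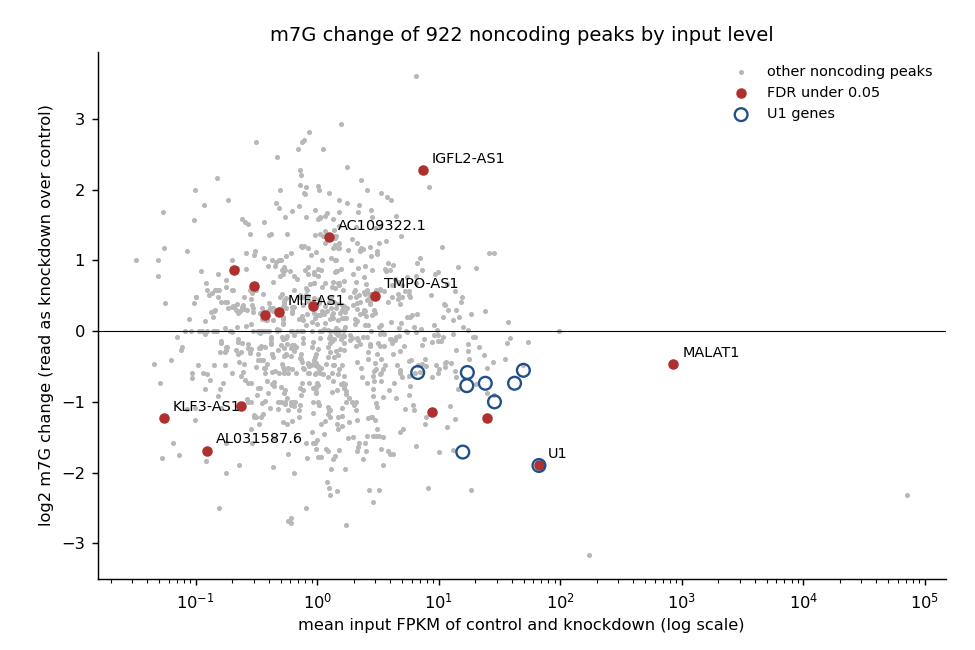
Log2 m7G change of each noncoding peak (y axis, read as knockdown over control) against the gene's mean input FPKM (x axis, log scale). The 15 peaks at an FDR under 0.05 are in red, and the 9 genes with a U1, RNU1 or RNVU1 symbol (U1 genes) are ringed. All 9 U1 peaks lie below 0, between -1.90 and -0.55, and 8 of the 15 red points lie under 1 FPKM.

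MALAT1, an abundant nuclear RNA of splicing speckles, was the called lincRNA of highest level, with input levels of 896 FPKM (control) and 803 FPKM (knockdown). Its peak (chr11:65499021-65499291, plus strand, 271 bases) had an enrichment of 7.26, a log2 m7G change of -0.46 and FDR 1.58e-04 in the authors' deposited table. The first 74 of its bases are shown because they hold a RefSeq start, the 25th base of the peak, from which letters are in capitals (chr11:65499021-65499094, GRCh38.p14, 70.3% GC).
MALAT1: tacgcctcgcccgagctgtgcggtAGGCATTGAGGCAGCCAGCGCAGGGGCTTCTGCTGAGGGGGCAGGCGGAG

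NEAT1, the scaffold RNA of paraspeckles, had input levels of 39.9 FPKM (control) and 37.1 FPKM (knockdown), and its peak had an m7G change of -0.10 (FDR 0.456) in the authors' deposited table. NORAD, which binds Pumilio proteins, stood at 104 and 91.6 FPKM, with a change of -0.001 and FDR 0.676 in the authors' deposited table. Both thus missed the threshold. Of the 6 listed long nuclear RNAs, 5 had a peak and MALAT1 alone was called, beside 5.25% of all peaks. At a mean input of 20 FPKM or more, 11.1% of noncoding and 14.9% of coding peaks were called. KCNQ1OT1 and JPX had enrichments of 8.44 and 15.4 at input levels under 1 FPKM.

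Of the 15 called members, 7 shared bases with a coding peak, and all 7 coding partners were called too in the authors' deposited table. Their changes were close, between 0.006 and 0.18 apart on the log2 scale. These 7 pairs were picked through the call of the noncoding peak. Over all 200 pairs, 18 had a called coding peak in the authors' deposited table, and in the rest of these 18 the noncoding peak was not called. In that table TYMS had FDR 1.41e-06, beside 0.676 for TYMSOS, but their peaks share only 14 bases. EXOSC10 had FDR 5.37e-04 in the authors' deposited table, beside 0.286 for AL109811.2, over 148 shared bases. TMPO-AS1, antisense to the nuclear lamina gene TMPO, had a change of 0.50 (FDR 0.00174) in the authors' deposited table, beside 0.54 for TMPO, over 386 shared bases. KLF3-AS1 had -1.23 (FDR 0.0417) in the authors' deposited table, beside -1.25 for the transcription factor gene KLF3. AC074212.1 had -1.06 (FDR 0.0219) in the authors' deposited table, beside -1.24 for the homeobox gene SIX5. AC005899.8 had 0.86 (FDR 2.63e-04) in the authors' deposited table, beside 0.91 for the proteasome subunit gene PSMD11. MIF-AS1 had 0.27 (FDR 1.91e-04) in the authors' deposited table, beside 0.25 for the cytokine gene MIF. SLC25A5-AS1 had 0.22 (FDR 0.0331) in the authors' deposited table, beside 0.22 for the ADP/ATP carrier gene SLC25A5. AL355987.4, on the same strand as its partner, had 0.35 (FDR 0.0275) in the authors' deposited table, beside 0.35 for RABL6.

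In these 7 pairs the coding gene had the higher input level every time. KLF3-AS1 stood at 0.0198 FPKM in control input and KLF3 at 10.3 FPKM. SLC25A5-AS1 stood at 0.156 FPKM and SLC25A5 at 331 FPKM, and MIF-AS1 at 0.907 FPKM and MIF at 38.4 FPKM. In these pairs a call of the noncoding gene cannot be told apart from one of the coding gene. Without peaks that share bases with a coding peak, a choice made after the data were seen, 8 noncoding peaks remained called, 3 higher and 5 lower. Over all 200 pairs, the m7G changes of the partners differed by a median of 0.27 (quartiles 0.09 and 0.81, largest 4.52), and the noncoding gene had the lower control input in 179 pairs.

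**Figure D3:**
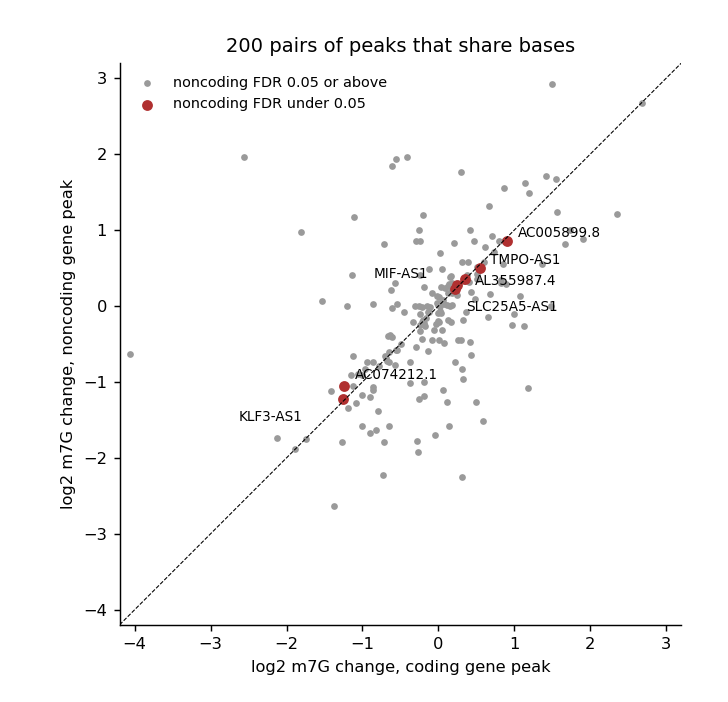
Log2 m7G change of the noncoding peak (y axis) against that of the coding peak with which it shares bases (x axis), 1 point per pair, with the line of equal change dashed. The 7 pairs whose noncoding peak has an FDR under 0.05 (red) lie within 0.18 of that line.

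The other 8 called peaks included those of MALAT1 and a U1 gene. AL031587.6 (chr22:37953632-37953932), a sense overlapping transcript in the spans of C22orf23 and POLR2F, had a change of -1.69 (FDR 9.33e-06) in the authors' deposited table, at an input of 0.144 and 0.103 FPKM. IGFL2-AS1 (chr19:46202592-46203083) had the largest called gain, 2.28 (FDR 0.0234) in the authors' deposited table, at 6.72 and 8.01 FPKM. AC109322.1, in the span of the exosome subunit gene EXOSC4, had 1.33 (FDR 2.75e-04) in the authors' deposited table. AC093323.1, which lies in what RefSeq now calls the coding gene MRFAP1L2, had -1.14 (FDR 0.0437) in the authors' deposited table. AC004057.1, a transcribed processed pseudogene in the span of ANK2, had -1.23 (FDR 0.0447) in the authors' deposited table, with an enrichment of 1.8, and was the last peak inside the threshold. Just outside it, RNA5-8SN4 had -2.32 (FDR 0.0589) in the authors' deposited table. Of the 15 called members, 13 lay within the RefSeq span of a coding gene, as did 440 of all 922 noncoding peaks, and 8 had a mean input under 1 FPKM. MALAT1 and the U1 gene were the called members outside such a span.

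U1 RNA recognises the 5' splice site. The 9 peaks of snRNA genes with a U1, RNU1 or RNVU1 symbol, here called U1 genes, all had lower m7G in the knockdown under this reading. Of all peaks, 48.6% had. In the authors' deposited table the 9 changes ran from -1.90 to -0.55, with a median of -0.74. Of the 9, 1 passed the FDR threshold, beside 5.25% of all peaks. That gene, U1 with the identifier ENSG00000274210 (chr1:148522601-148522765, plus strand, enrichment 5.35), had a change of -1.90 and FDR 9.77e-04 in the authors' deposited table. Its input level was 58.0 FPKM (control) and 75.6 FPKM (knockdown). Whether RNA level bears on the m7G change was not tested. Over the 9 genes the input ran from 7.36 to 58.0 FPKM in control and from 6.07 to 75.6 FPKM in knockdown, and 6 of 9 were higher in knockdown. The 9 were grouped by symbol and include RNVU1 variants and RNU1-120P and RNU1-122P, whose symbols end in the P of pseudogenes. Reads can be split among similar copies, so the 9 peaks are not 9 independent measurements. RNU1-120P had the highest enrichment of them, 31, and RNVU1-15 followed at 6.65.

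The other small RNA genes were few. A U2 gene, whose RNA pairs with the branch point, stood at 346 FPKM in control input and was listed at 0 in knockdown input, with an enrichment of 12.1 and an m7G change of -3.16 (FDR 0.559) in the authors' deposited table. Whether its reads were split among U2 copies was not tested, so the value of 0 cannot be read as a loss of U2 RNA. RNU2-63P stood at 35.0 and 16.4 FPKM with a change of 1.11 (FDR 0.643) in the authors' deposited table. U3, a snoRNA of rRNA processing, stood at 17.6 and 22.4 FPKM with a change of -0.08 (FDR 0.710) in the authors' deposited table and an enrichment of 7.12. RNA5-8SN4, an rRNA gene with an enrichment of 2.33, had the highest input of all members, 66415 and 76727 FPKM. Of the 14 small housekeeping RNA genes searched, such as RN7SK, RMRP, vault and Y RNA genes, 0 had a row in the table used here.

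Of the snoRNA host genes, 21 of 30 had a peak, with a median enrichment of 12.4, and 0 passed the FDR threshold of the authors' deposited table, beside 5.25% of all peaks, with 11 of the 21 lower. In input, 0 of the 20 that reached a mean of 1 FPKM were past 2-fold, where 0.988% of all genes were, so the count does not set them apart. SNHG8 stood at 35.3 and 38.7 FPKM, SNHG19 at 19.6 and 18.9, SNHG1 at 20.3 and 16.9, DANCR at 13.5 and 15.6, SNHG5 at 13.9 and 13.6 and SNHG12 at 13.4 and 13.9 FPKM in control and knockdown input. Their m7G changes in the authors' deposited table were 0.12, -0.09, -2.25, 0.20, -1.24 and 0.57 in that order, with FDRs between 0.174 and 0.676. SNHG1 and SNHG5 thus had values well below 0 that did not pass the test.

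Of 10 microRNA host genes with a peak, 7 had lower m7G, beside 48.6% of all peaks, and 0 were called, beside 5.25% of all peaks, in the authors' deposited table. MIR200CHG stood at 14.2 and 20.4 FPKM in control and knockdown input, H19, an imprinted growth-linked RNA, at 9.01 and 4.35 FPKM, MIR4713HG at 5.63 and 1.84 FPKM and MIR22HG at 2.31 and 3.77 FPKM. MIR181A1HG stood at 3.09 and 2.59 FPKM and MIR34AHG, host of a p53-regulated microRNA, at 1.70 and 1.52 FPKM. Of 32 lncRNA genes studied in colorectal cancer, 17 had a peak and MALAT1 alone was called in the authors' deposited table, beside 5.25% of all peaks. Of 173 genes with an antisense or divergent symbol, 5 were called, and of 145 pseudogenes 2, in the authors' deposited table, where 1.63% of all noncoding and 5.25% of all peaks were.

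The input comparison asks how RNA levels differ between the lines. A mean of 1 FPKM or more was reached by 485 noncoding genes. Of these, 21 were 2-fold or more higher in knockdown on the log2(FPKM + 1) scale, where 0.429% of all 8400 genes of the table were, and 23 were 2-fold or more lower, where 0.56% of all were. Both directions together made 44 noncoding genes, beside 0.988% of all genes. The median log2 ratio was -0.05 for noncoding genes and 0.01 for all. By group it was -0.04 for antisense RNA genes, -0.11 for lincRNA genes and -0.01 for other long noncoding classes. For pseudogenes it was 0.01, and for the 13 small RNA genes 0.21. Noncoding genes are lower expressed, and 37 were listed at 0 in control and 37 in knockdown input.

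AL158152.2, the lincRNA that spans the 3 let-7 hairpins shown above, had an input level of 9.36 FPKM in control cells against 0.366 FPKM in knockdown cells, 25.6-fold lower (4.15 to 1054; the smallest reads behind it are 23 and 1). Its peak had an enrichment of 26.3 and an m7G change of 1.35 (FDR 0.676) in the authors' deposited table. In the co-culture table it stood at 0.671 and 0.685 FPKM. AC116025.2 stood at 3.24 and 0.194 FPKM, 16.7-fold lower (2.57 to 702). AC093732.1 stood at 2.47 and 0.171 FPKM, 14.5-fold lower (2.17 to 614). With the U2 gene, these had the 4 lowest log2(FPKM + 1) ratios. The intervals of AL158152.2, AC116025.2 and AC093732.1 are wide because few reads stand behind them, and the U2 gene has none. These genes were named for their extreme ratios, and the intervals take no account of that choice.

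The largest log2(FPKM + 1) ratio towards knockdown was that of AL441992.1, with 0.528 FPKM (control) and 5.22 FPKM (knockdown), 9.89-fold higher (1.44 to 426). BX537318.1 stood at 0.159 and 3.35 FPKM, 21.1-fold higher (5.53 to 180). LINC01952 and ADAMTS19-AS1 were listed at 0 in control input and stood at 2.61 and 2.52 FPKM in knockdown. AL357078.1 stood at 0.617 and 4.44 FPKM, and its interval, 0.965 to 319, included no difference. Most of the 44 were genes of low level: among genes with a mean of 5 FPKM or more, 3 were higher and 4 lower.

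The question of the co-culture comparison is how RNA levels beside S-CAFs differ from the DLD1-W13CM library. Of the 922 genes, 833 were in that table, and 510 reached a mean of 1 FPKM. In S-CAFs-w13, 39 of the 510 were 2-fold or more higher, where 9.08% of all 14739 genes were, and 49 were 2-fold or more lower, where 7.92% of all were. Together these were 88 noncoding genes, beside 17% of all genes. The split, 44.3% higher, moved with the scaling: by the log2 fold changes of the authors' deposited table, 56 were higher and 115 lower (32.7% higher), and after rescaling without mitochondrial genes 29 were higher and 71 lower (29% higher). The median log2 ratio was 0.02 for noncoding and 0.02 for all genes. By group it was -0.01 for antisense RNA genes, 0.02 for lincRNA genes and 0.04 for other long noncoding classes. For pseudogenes it was 0.21, and for the 8 small RNA genes tested -2.26. The median of all genes was -0.12 by the log2 fold changes of the authors' deposited table and -0.15 after rescaling.

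By the log2(FPKM + 1) ratio, NEAT1 and MALAT1 had the largest differences towards S-CAFs-w13 among noncoding genes, NEAT1 at 21.2 and 253 FPKM and MALAT1 at 1014 and 5201 FPKM in DLD1-W13CM and S-CAFs-w13. MHENCR, an antisense RNA gene, stood at 0.591 and 6.43 FPKM, 10.9-fold higher (3.40 to 55.5). AC010531.6 was listed at 0 in DLD1-W13CM and stood at 3.61 FPKM in S-CAFs-w13, and AC136475.3 stood at 2.75 FPKM and was 5.10-fold higher, although its interval of 0.571 to 241 included no difference. Of the snoRNA host genes, SNHG8 was 4.17-fold higher, at 5.98 and 24.9 FPKM, and DANCR 2.41-fold lower, at 10.0 and 4.15 FPKM.

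Of the 5 lowest log2(FPKM + 1) ratios, 4 were of U1 copies. Of the 9 U1 genes, 6 were in the co-culture table, between 4.78 and 19.1 FPKM in DLD1-W13CM, and all 6 were lower in S-CAFs-w13, at 1.95 FPKM or less. RNVU1-4 stood at 12.5 FPKM and RNVU1-6 at 10.6 FPKM in DLD1-W13CM, and both were listed at 0 in S-CAFs-w13. U1 with the identifier ENSG00000274210 stood at 19.1 and 1.95 FPKM, 9.81-fold lower (1.40 to 426), and the copy ENSG00000274428 at 10.8 and 1.01 FPKM, 10.8-fold lower (1.57 to 464). The one of these 5 that was no U1 copy was AC009118.2, antisense in the span of the replication gene GINS3, which stood at 8.19 and 0.491 FPKM, 16.7-fold lower (2.61 to 697).

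**Figure D4:**
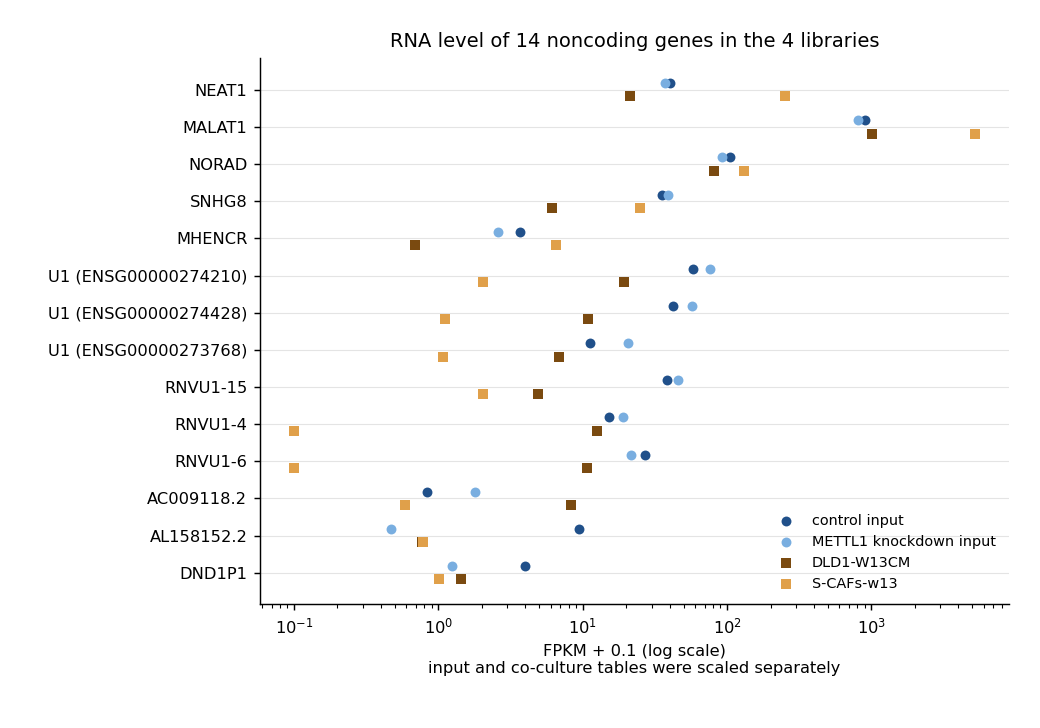
FPKM plus 0.1 (x axis, log scale) of 14 noncoding genes in control input, METTL1 knockdown input, DLD1-W13CM and S-CAFs-w13, 1 point per library. U1 copies lie to the right in both inputs and lowest in S-CAFs-w13, NEAT1 and MALAT1 each have their highest point in S-CAFs-w13, and AL158152.2 is high in control input alone.

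Levels of antisense genes differed between the tables, which were scaled separately. Of 390 antisense RNA genes in both, 119 had a mean co-culture FPKM over 5 times the mean input FPKM, beside 11 of 199 lincRNA genes and 80 of 8488 coding genes. It was 3 of 133 for pseudogenes and 17 of 103 for the other long noncoding classes. Among the latter were 9 of 30 TEC genes, a share like that of antisense genes. The 119 were 67 of the 143 whose peak shares bases with a coding peak and 52 of the other 247. MIF-AS1 stood at 0.907 and 0.0583 FPKM in the inputs and at 51.3 and 48.3 FPKM in the co-culture libraries. AC011603.2, in the span of the tubulin gene TUBA1B, AL645941.3, in that of BRD2, and AC093512.1, in that of the glycolytic gene ALDOA, were picked after their values were seen. Their levels were 666, 115 and 40.7 FPKM in DLD1-W13CM, but 0.762, 0 and 0.184 FPKM in control input. Over the 178 opposite-strand pairs in both tables, the noncoding gene's level had a median of 7.76% of its coding partner's in control input and of 39.9% in DLD1-W13CM. Whether the tables were counted with the same use of strand was not tested.

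**Figure D5:**
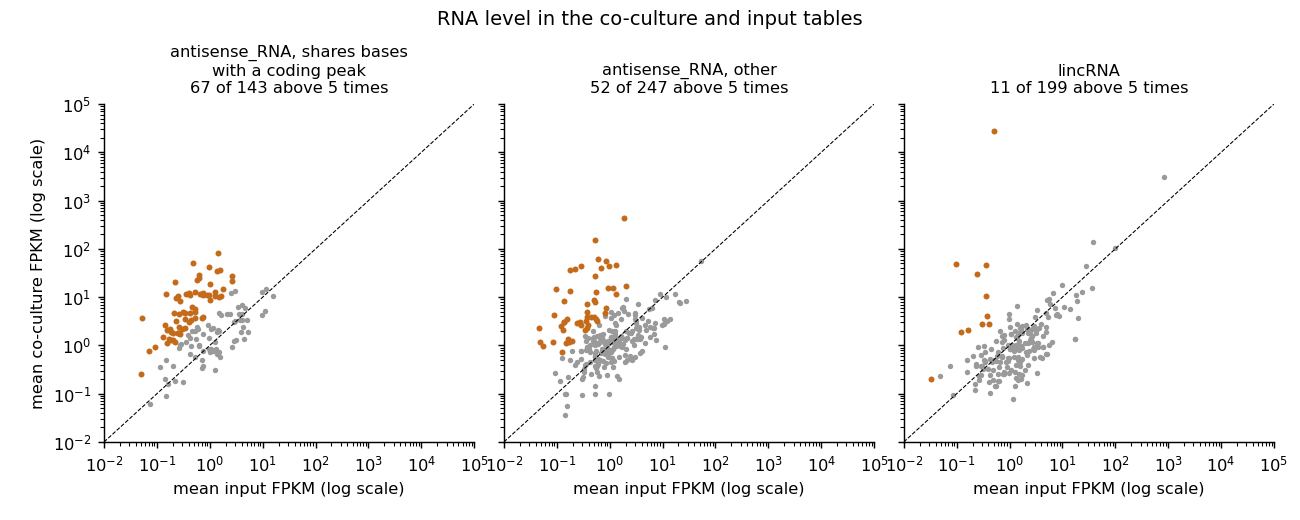
Mean co-culture FPKM (y axis) against mean input FPKM (x axis), both on log scales, for antisense RNA genes whose peak shares bases with a coding peak, other antisense RNA genes and lincRNA genes, with orange points above 5 times the input level and the line of equal level dashed. Orange points make up 67 of 143, 52 of 247 and 11 of 199 genes.

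The ribosomal RNA region on chromosome 21 showed a wide gap between the tables, and its genes were picked after their values were seen. The lincRNA gene FP236383.3 has its peak on the minus strand (chr21:8438432-8438551, enrichment 18.8), inside the span of the RefSeq rRNA genes RNA18SN1 and RNA45SN1. It was listed at 0 in control input, stood at 1.03 FPKM in knockdown input, and reached 22090 FPKM (DLD1-W13CM) and 31941 FPKM (S-CAFs-w13). RNA5-8SN4, whose peak (chr21:8395658-8395759) lies in the RefSeq gene RNA5-8SN3, went the other way, at 66415 and 76727 FPKM in the inputs and 483 and 455 FPKM in the co-culture libraries. FP671120.4, at chr21:8255395-8255514, stood at 0.104 and 0.0932 FPKM in the inputs and 41.5 and 57.7 FPKM in the co-culture libraries. Copies of rRNA genes are near identical, so reads can be split among them.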

How the data were processed

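RNA of DLD1 cells was measured in 6 libraries, 1 per group. Per the submitters' processing notes, cutadapt 2.5, HISAT2 2.1.0, featureCounts 1.6.3, DESeq2, SAMtools 1.10 and HOMER 4.10.4 were used, with no step for each; the sources used here do not name the peak caller or the use of strand. The authors deposited FPKM values (in the knockdown table the unit was inferred from the values), log2 changes of input, co-culture and m7G, p-values per gene, log10 of the m7G p-value and FDR, and a ratio, the fold enrichment per peak. A p-value per gene was not used as a test here.

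Levels were compared as log2((FPKM + 1)/(FPKM + 1)) with a mean of at least 1 FPKM; folds are plain FPKM ratios. The smallest whole reads behind each FPKM ratio (tolerance 1.00e-13) were recovered for 9348 of 9348 and 20805 of 20806 genes above 0 in both libraries, and gave Clopper-Pearson 95% intervals at their widest, which cover counting error only. For genes named for an extreme ratio, the intervals take no account of that choice. The recovery was tested on simulated data. With 1 library per group there is no test across libraries.

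Peaks were placed against RefSeq start windows and gene spans of GRCh38.p14 by symbol; of 8514 peaks with a RefSeq span, 98.7% lay in it. Python 3.11.15, numpy 2.4.6, scipy 1.17.1, pandas 2.3.3 and matplotlib 3.10.9 were used. Named are all called peaks, the leading 3 by enrichment per biotype (1 where there are under 10 peaks), the 5 largest ratios each way in input and co-culture, the 5 highest inputs, up to 6 members per list, and the peak on either side of the threshold. A called peak and a gene of the input comparison that this rule names are not reported here. The members and lists were chosen with earlier results of these data known. Alternatives were another FDR, p, minimum change, level, pseudocount or scaling, and leaving out pseudogenes or peaks that share bases with a coding peak.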

Additional observations from a re-analysis of the deposited data

How the results depend on the processing

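Of 37 recalculations of 7 results, 20 stayed within an interval around the reported value, or within 1.5 times of it, and 17 moved. For the share of peaks with lower m7G, the bounds of that interval were 46.5% and 53.1%. The interval treats peaks as independent measurements, but peaks are not replicates, so these labels do not cover variation between libraries. The 15 called m7G peaks became 8 at an FDR under 0.01, 49 at an unadjusted p under 0.05, 8 with a log2 change of at least 1, 7 with a mean input of at least 1 FPKM and 8 without peaks that share bases with a coding peak, the last chosen after the data were seen. Read as control over knockdown, the signs of all 15 called m7G changes turn, and 46.3% of noncoding peaks had lower m7G in place of 49.8%. These are the same 427 peaks that were higher in the first reading. The median enrichment was 8.94 with a mean input of at least 1 FPKM. The 44 genes 2-fold changed in input became 90 with a pseudocount of 0.1, 69 without a filter, 7 with a mean of at least 5 FPKM and 93 by the authors' log2 fold changes. The 88 in co-culture became 157 with a pseudocount of 0.1, 31 with a mean of at least 5 FPKM and 171 by the authors' log2 fold changes. The co-culture median of 0.02 became 0.11 with a mean of at least 5 FPKM, -0.12 by the authors' log2 fold changes and -0.16 after rescaling without mitochondrial genes; of the cause, beyond fewer genes tested or another scaling, nothing was tested. No paired analysis was possible because each group has 1 library, and for the same reason no replicate could be left out. Few reads stand behind genes of low level, whose counting intervals are wide, and an effect of depth on the calls was not tested.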
